A study of Rattus norvegicus with 9 samples.

Results

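Transcript levels of 10 apolipoprotein genes were followed through 9 rat liver libraries. The genes were chosen by symbol among the apolipoproteins of plasma lipoproteins with rows in both deposited tables. Others, such as Apoc4 and Apoh, were left out of the choice. The chosen genes are 10 of the 15565 genes that both tables hold: Apoa1, Apoa2, Apoa4, Apoa5, Apob, Apoc1, Apoc2, Apoc3, Apoe and Apom. The livers came from male SD rats in 3 groups of 3 libraries. Rats of the normal group were given a normal diet. Rats of the model group were given a high-fat diet for 8 weeks, and their liver is labelled as non-alcoholic fatty liver. Rats of the third group were treated with Smilax china L. (SCL), a climbing plant whose rhizome is used as a herbal medicine. Their liver carries the same fatty liver label, but the labels do not say which diet these rats ate, how SCL was given or at what dose. Age is not given for any group. A replicate number marks a library within its group, and nothing says whether each library is a rat of its own. The p-values therefore speak only to the spread among these libraries, part of which may be technical.

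Apolipoproteins are the protein part of plasma lipoproteins, and the liver secretes most of them. Apob forms the body of very-low-density and low-density lipoproteins, Apoa1 and Apoa2 that of high-density lipoprotein, and the small exchangeable apolipoproteins move between particles and set how lipases and receptors act on them. When triglyceride builds up in hepatocytes, its export on particles built around Apob is one of the routes by which it leaves the cell, which is why this family is of interest in a fatty liver. Bulk tissue RNA was sequenced, so fewer cells of a type and less RNA per cell cannot be told apart.

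These genes lie at 5 places in the rat genome. By the order of genes in RefSeq (assembly GRCr8), Apoa1, Apoc3, Apoa4 and Apoa5 are consecutive on chromosome 8, and Apoc2, Apoc4, Apoc1 and Apoe on chromosome 1. Apoa2 lies on chromosome 13, Apob on chromosome 6 and Apom on chromosome 20. RefSeq promoter sequences (GRCr8) were matched for 6 of the 10 genes, Apoa4, Apoa5, Apoc1, Apoc2, Apoe and Apom, and not used here for Apoa1, Apoa2, Apob and Apoc3. The 150 bases before the listed transcription start are printed for 4 of the 6. Apoa4 and Apoa5 are shown because they are neighbours with the most and the least variable level among the 10 genes over all 9 libraries. Apoc2 is shown because it stands for the other cluster, and Apom because it lies in neither. The positions are chr8:55435629-55435778 on the plus strand for Apoa4, chr8:55457721-55457870 on the plus strand for the upstream of the listed Apoa5 starts, chr1:88462366-88462515 on the minus strand for Apoc2 and chr20:3695468-3695617 on the plus strand for Apom. Each reads 5′ to 3′ toward the gene, and capitals mark a match to one of 3 motifs: TATAAA on the gene's strand, AGGTCA on either strand and CCAAT on either strand.
Apoa4: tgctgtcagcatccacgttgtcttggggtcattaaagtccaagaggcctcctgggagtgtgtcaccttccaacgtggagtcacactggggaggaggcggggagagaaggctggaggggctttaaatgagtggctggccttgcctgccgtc
Apoa5: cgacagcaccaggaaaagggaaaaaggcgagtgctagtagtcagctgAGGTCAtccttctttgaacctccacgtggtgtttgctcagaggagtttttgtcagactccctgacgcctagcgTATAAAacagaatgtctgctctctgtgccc
Apoc2: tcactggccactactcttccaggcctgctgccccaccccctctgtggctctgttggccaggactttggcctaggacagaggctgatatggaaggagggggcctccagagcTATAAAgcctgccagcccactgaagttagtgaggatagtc
Apom: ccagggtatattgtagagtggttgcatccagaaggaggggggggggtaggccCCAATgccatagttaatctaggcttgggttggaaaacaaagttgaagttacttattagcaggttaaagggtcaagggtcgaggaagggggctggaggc

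In these windows TATAAA began 30 bases before the start in Apoa5 and 40 bases before it in Apoc2. AGGTCA, the core hexamer of many nuclear receptor elements, was found in Apoa5 at 103 bases before the start, and CCAAT in Apom at 98 bases before it. The Apoa4 window held none of the 3 motifs. Over all 33469 promoters of the table, windows of the same length held TATAAA in 5.15%, AGGTCA in 8.76% and CCAAT in 23.5%. A match describes the letters only, and no matches printed here overlap.

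Depth was 12413774 to 15521648 reads per library. The 13 transcripts of the mitochondrial genome took 3.85 to 18.8% of reads in 7 libraries, but 44.1% in high-fat diet replicate 3 and 49.0% in SCL replicate 2, and results that rest on these 2 libraries are given with and without them. No difference in this share between groups passed the test (two-sided exact permutation tests of 3 against 3 libraries, p = 0.2, 1.0 and 0.3, where 0.1 is the smallest value possible). All 12 hepatocyte markers were present in every group. Their summed level was 176896 to 213853 CPM (counts scaled to a common library size) on the normal diet, 83298 to 173430 on the high-fat diet and 82887 to 259790 with SCL. Their part in the levels below was not tested.

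Levels are given as the authors' FPKM, the count of a gene scaled by its length and by the library's total, because genes can be compared with each other only per length. The 10 genes took 1.78 to 4.87% of all reads, and the lowest 2 shares were those of the 2 libraries rich in mitochondrial reads. The totals behind these shares and behind FPKM include the mitochondrial reads. Of the reads that were not mitochondrial the 10 genes took 3.35 to 5.47%. That share was 4.14% in high-fat diet replicate 3 and 3.49% in SCL replicate 2, and it was lowest in normal diet replicate 1. On the normal diet the mean FPKM ran in the order Apoe, Apoc3, Apoc1, Apoa2, Apoc2, Apoa1, Apoa5, Apom, Apob and Apoa4. Of the 9 steps in that order, 5 were between genes whose ranges did not overlap. Ranges overlapped for the steps from Apoc3 to Apoc1, Apoc1 to Apoa2, Apoc2 to Apoa1 and Apom to Apob. Within single libraries, the first 2 of these steps had the same order in all 3 and the last 2 in 2 of 3. Apoe, Apoc1, Apoc3 and Apoa2 together made up 82.2 to 91.9% of the summed FPKM of the 10 genes in every library. Apoe had the highest FPKM of the 10 in 8 of 9 libraries, and in high-fat diet replicate 3 Apoc1 was above it, at 7646 against 6619 FPKM.

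**Figure D1:**
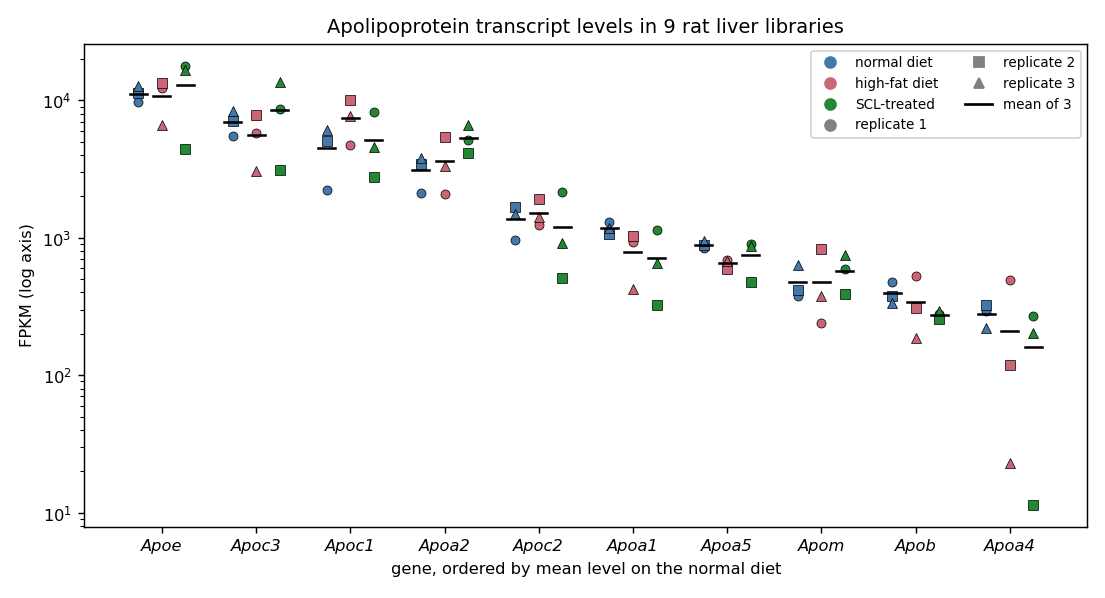
FPKM on a log axis for each of the 10 genes in the 9 libraries, with colour for the group, symbol for the replicate number and a bar at each group's mean. The normal diet libraries lie close together for most genes, while Apoa4 spreads from 11.4 to 492 FPKM over the high-fat diet and SCL libraries.

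Apoa1 and Apoa2 are the main structural proteins of high-density lipoprotein. Apoa1 stood at 1293, 1068 and 1181 FPKM on the normal diet, at 927, 1024 and 422 on the high-fat diet and at 1138, 324 and 659 with SCL. Every high-fat diet library was below every normal diet library on this scale, and the lowest of both fatty liver groups were the 2 libraries rich in mitochondrial reads. In CPM scaled by edgeR's TMM method these groups overlapped, with 959 in high-fat diet replicate 2 and 832 in normal diet replicate 2. The edgeR log2 fold change of Apoa1 was -0.52 (SE 0.43, adjusted p = 0.915) on the high-fat diet against the normal diet and -0.56 (SE 0.43, adjusted p = 0.686) for SCL against the normal diet. Without those 2 libraries the log2 fold changes were -0.27 and -0.26. Apoa2 went the other way in the SCL group. It stood at 2126, 3446 and 3777 FPKM on the normal diet, at 2100, 5406 and 3351 on the high-fat diet and at 5119, 4109 and 6649 with SCL. All 3 SCL libraries were above all 3 normal diet libraries, while the high-fat diet range covered most of both. The log2 fold change of Apoa2 for SCL against the normal diet was 0.99 (SE 0.47, unadjusted p = 0.0613, adjusted p = 0.665 in edgeR), a 1.99-fold higher level. DESeq2 gave an unadjusted p of 0.0261 and an adjusted p of 0.504 for the same difference.

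Apob is the large, non-exchangeable protein of very-low-density lipoprotein, with 1 copy to a particle. Its level was 473, 374 and 333 FPKM in normal livers, 528, 308 and 186 in high-fat diet livers and 280, 256 and 293 with SCL. The SCL libraries were all below the normal diet libraries in FPKM, but in CPM scaled by edgeR's TMM method the groups overlapped. The log2 fold change of Apob was -0.19 (SE 0.40) on the high-fat diet against the normal diet and -0.27 (SE 0.40) for SCL against the normal diet. By mean FPKM, which divides by length, Apob was the second lowest of the 10 genes in all 3 groups. Its gene length of 14969 bases, the length that the deposited FPKM and counts imply, was the greatest. Of the reads of the 10 genes Apob took 8.59 to 22.2%. Apom, a carrier of sphingosine 1-phosphate on high-density lipoprotein, stood at 376, 417 and 631 FPKM on the normal diet, at 240, 823 and 374 on the high-fat diet and at 593, 387 and 748 with SCL. The high-fat diet libraries of Apom held both its lowest and its highest value, and the groups overlapped in every comparison.

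Apoe is the ligand by which remnant particles bind to receptors on hepatocytes. It stood at 9710, 11251 and 12682 FPKM on the normal diet, at 12205, 13388 and 6619 on the high-fat diet and at 17805, 4443 and 16728 with SCL. Among all genes of a library Apoe ranked between 4 and 7 by FPKM on the normal diet, between 4 and 12 on the high-fat diet and between 4 and 15 with SCL. The lowest value of Apoe in each fatty liver group came from its library rich in mitochondrial reads, and the groups overlapped. Macrophages also make Apoe, and the summed level of 10 Kupffer cell and macrophage markers was 444 to 593 CPM on the normal diet, 273 to 528 with the high-fat diet and 285 to 540 with SCL, whose part in the level of Apoe was not tested. The log2 fold change of Apoe was -0.0014 (SE 0.56) on the high-fat diet against the normal diet and 0.40 (SE 0.56) for SCL against either group, so it was within its error in all 3 comparisons. Without the 2 libraries it was 0.19, and 0.78 for SCL against the normal diet and 0.58 against the high-fat diet.

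Of the C apolipoproteins, Apoc1 inhibits lipoprotein lipase, Apoc2 is the activator that lipoprotein lipase requires, and Apoc3 slows the breakdown and uptake of particles rich in triglyceride. Apoc1 stood at 2243, 5097 and 6074 FPKM on the normal diet, at 4740, 10066 and 7646 on the high-fat diet and at 8179, 2760 and 4581 with SCL. The 2 highest high-fat diet values were above every normal diet value, but the groups overlapped. Apoc1 had the largest log2 fold change of the 10 genes on the high-fat diet, 0.87 (SE 0.54, unadjusted p = 0.138, adjusted p = 0.911 in edgeR). Without normal diet replicate 1 it was 0.53. Apoc2 stood at 967, 1661 and 1480 FPKM on the normal diet, at 1243, 1926 and 1409 on the high-fat diet and at 2147, 513 and 919 with SCL. The SCL libraries held both the highest and the lowest level of Apoc2, the lowest in the library rich in mitochondrial reads. For Apoc3 the values were 5521, 7032 and 8314 FPKM in normal livers, 5822, 7864 and 3076 in high-fat diet livers and 8656, 3103 and 13693 with SCL. Its lowest values were again those of the 2 libraries rich in mitochondrial reads. The largest log2 fold change of the 10 genes for SCL against the high-fat diet was that of Apoc3, 0.74 (SE 0.56, adjusted p = 1.00 in edgeR), and without those 2 libraries it was 0.87.

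Apoa4 is made by intestine and liver and is known to rise in liver with triglyceride load, and Apoa5 favours the breakdown of triglyceride by lipoprotein lipase. Apoa4 stood at 293, 324 and 219 FPKM on the normal diet, at 492, 119 and 22.8 on the high-fat diet and at 271, 11.4 and 202 with SCL. The 3 normal diet libraries differed little, whereas the high-fat diet group held the highest value of all and, apart from 1 SCL library, the lowest. These levels rest on 199 to 10748 reads. Apoa5, the next gene on the chromosome, stood at 837, 892 and 944 FPKM on the normal diet, at 684, 594 and 674 on the high-fat diet and at 908, 474 and 866 with SCL. Every high-fat diet library of Apoa5 was below every normal diet library in FPKM and in CPM. The log2 fold change of Apoa5 was -0.37 (SE 0.34, adjusted p = 0.915 in edgeR), and without the 2 libraries rich in mitochondrial reads it was -0.50.

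Apoa4 and Apoa5 mark the ends of the range in variability over all 9 libraries. Over the 9 libraries the standard deviation of log2 CPM was 1.70 for Apoa4, larger than that of 99.2% of the 12041 genes tested, whose median was 0.51. It was 0.30 for Apoa5 and 0.32 for Apob, the latter larger than that of 18.9% of genes. The other 7 lay between 0.58 and 0.75. The highest FPKM of Apoa4 was 43.2 times its lowest, and 4.12 times over the 7 libraries without the 2 rich in mitochondrial reads. For Apoa5 those ratios were 1.99 and 1.59. Apoc1 had a larger ratio than Apoa4 over the 7 libraries, 4.49.

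The 2 lowest levels of Apoa4 were those of the 2 libraries with over 40% mitochondrial reads. Relations of log2 CPM with the mitochondrial share were computed over all 9 libraries and, as these 2 libraries stand apart, over the other 7. Over all 9, Apoa4 was the 1 gene of 10 that passed, with Pearson's r = -0.989 (exact permutation p = 0.00016, adjusted over the 10 genes 0.0016) and Spearman's rho = -0.933 (exact permutation p = 0.00075, adjusted 0.0075). The relation was computed for the 10 genes only. How many of all genes tested would pass is not known, so it is not shown to be particular to Apoa4. Over the 7, Apoa4 had Pearson's r = -0.861 (exact permutation p = 0.0115, adjusted over the 10 genes 0.0982) and Spearman's rho = -0.857 (exact permutation p = 0.0238, adjusted 0.119). Leaving out high-fat diet replicate 2 and normal diet replicate 3, the libraries farthest from the median share, gave r = -0.373, so the relation of Apoa4 rests on those samples. Apoc1 had r = 0.198 over all 9 libraries, and over the 7 it had r = 0.838 (exact permutation p = 0.0196, adjusted 0.0982), rho = 0.857 (exact permutation p = 0.0238, adjusted 0.119), and r = 0.759 without the same libraries. None of the 10 relations over the 7 libraries passed an adjusted p of 0.05, and within a group 3 libraries are too few for a correlation. Apoa5 had r = -0.384 over the 9 and -0.0728 over the 7. With the log2 mitochondrial share as a covariate the log2 fold change of Apoa4 on the high-fat diet turned from -0.49 (SE 0.96) to 0.39, and without the 2 libraries it was 0.03. Whether the mitochondrial share has a part in the level of Apoa4 was not tested. Apoa4 is also an intestinal gene, and 4 of 8 enterocyte markers were rows of both tables. Their summed level was 1.90 to 22.0 CPM on the normal diet, 5.97 to 60.4 on the high-fat diet and 2.86 to 29.0 with SCL, and the marker Cdx2 was at 0 in all normal diet and SCL libraries.

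**Figure D2:**
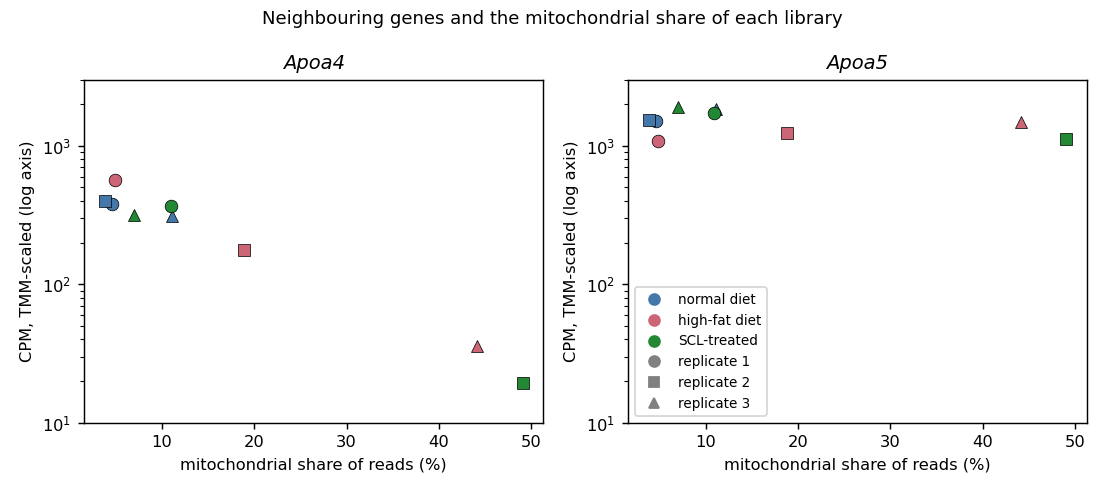
CPM of Apoa4 (left) and Apoa5 (right) on a log axis against the mitochondrial share of reads in percent, 1 point per library with colour for the group and symbol for the replicate number. Apoa4 is lowest in the 2 libraries above 40%, while Apoa5 stays within a 1.75-fold range of CPM over all 9.

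No apolipoprotein passed the test in any comparison. Genes were called at an adjusted p under 0.05 in edgeR's quasi-likelihood test, adjusted by the Benjamini-Hochberg method over all 12041 genes tested. All 10 members were tested. On the high-fat diet against the normal diet, 0 of 10 were called by edgeR, where 0.0083% of all genes were, and 0 of 10 had an unadjusted p under 0.05, where 4.32% of all genes did. DESeq2 called 0 of 10 against 0.413% of all genes, and gave an unadjusted p under 0.05 to 0 of 10 against 5.01%. Of the 10 genes 4 were higher and 6 lower, with a median log2 fold change of -0.09 beside 0.03 over all genes. The median was 0.12 without the 2 libraries rich in mitochondrial reads. In CPM 1 of 10 had groups that did not overlap, Apoa5, where 10.6% of all genes did.

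For SCL against the high-fat diet 0 of 10 were called by edgeR and 0.0% of all genes, and 0 of 10 had an unadjusted p under 0.05 beside 1.95% of all genes. DESeq2 called 0 of 10 and 0.00643% of all genes, with an unadjusted p under 0.05 for 0 of 10 and 2.59%. Of the members 5 were higher and 5 lower, the median log2 fold change was 0.14 (0.23 without the 2 libraries) beside -0.03 over all genes, and no member had groups that did not overlap in CPM, beside 4.78% of all genes. For SCL against the normal diet edgeR called 0 of 10, beside 0.0083% of all genes, and 0 of 10 had an unadjusted p under 0.05, beside 6.88%. DESeq2 called 0 of 10, beside 0.281%, and gave an unadjusted p under 0.05 to 1 of 10, Apoa2, beside 8.05% of all genes. Again 5 members were higher and 5 lower, with a median of 0.18 (0.46 without the 2 libraries) beside 0.03 over all genes. Apoa2 was the 1 member of 10 whose groups did not overlap in CPM, beside 15.3% of all genes. Each pair of comparisons shares 3 libraries, so they are not independent of each other.

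Side by side, the log2 fold changes on the high-fat diet against the normal diet and for SCL against the high-fat diet were 0.87 and -0.48 for Apoc1, -0.37 and 0.33 for Apoa5, -0.25 and 0.74 for Apoc3, 0.27 and -0.30 for Apoc2, and -0.0014 and 0.40 for Apoe. They were -0.52 and -0.04 for Apoa1, 0.35 and 0.64 for Apoa2, -0.49 and -0.13 for Apoa4, -0.19 and -0.08 for Apob, and 0.14 and 0.35 for Apom. The standard errors were 0.34 to 0.96, so each of these differences was within 1.61 standard errors of 0. As the high-fat diet libraries enter both comparisons with opposite sign, these pairs of values are a description only.

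**Figure D3:**
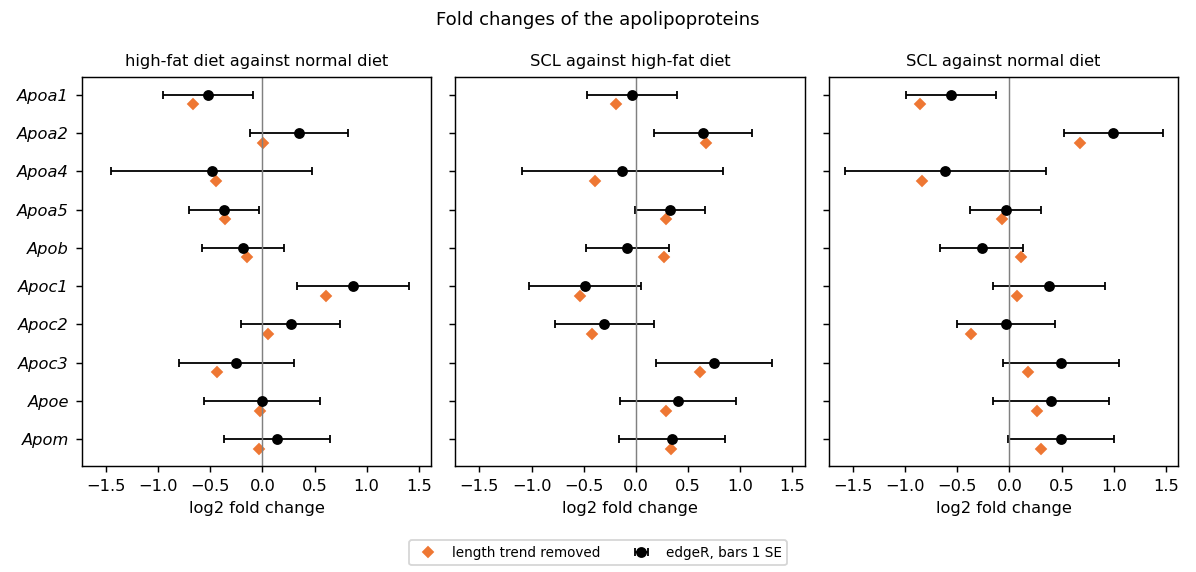
Log2 fold change of each of the 10 genes in the 3 comparisons, as black points with bars of 1 standard error from edgeR and as orange diamonds with the gene-length trend of each library removed. Most black bars cross 0, and Apoa2 for SCL against the normal diet lies farthest from it at 0.99.

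The size of the apolipoprotein transcript pool was compared as the summed FPKM of the 10 genes, and no difference passed the test. Apoh and Apoc4 are not part of this pool. Apoh had a mean of 4215 FPKM on the normal diet, 2805 on the high-fat diet and 3164 with SCL. The summed FPKM of the 10 genes averaged 30346 ± 5991 (SD, n = 3) in the normal group. It averaged 31427 ± 9118 (SD, n = 3) in the high-fat diet group and 35604 ± 16650 (SD, n = 3) in the SCL group. Two-sided exact permutation tests of these sums gave p = 1.0 for the high-fat diet against the normal diet, 0.8 for SCL against the high-fat diet and 0.6 for SCL against the normal diet. The 2 libraries rich in mitochondrial reads had the 2 lowest sums, 23781 and 16379. FPKM is scaled by a total that includes mitochondrial reads. In CPM scaled by TMM these 2 libraries also had the lowest sums, 25821 and 21447. Without them the difference of the means moved from 1081 to 4903 FPKM for the high-fat diet against the normal diet, from 4177 to 9967 for SCL against the high-fat diet and from 5258 to 14870 for SCL against the normal diet. Without SCL replicate 3 the last was 392, and SCL against the high-fat diet was -689.

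The make-up of that pool was compared as each gene's share of the summed FPKM, which does not depend on how libraries are scaled. The share of Apoa1 was below the normal range in all 6 libraries of the other groups, at 3.31 to 5.42% on the normal diet, 1.78 to 3.20% on the high-fat diet and 1.45 to 2.52% with SCL. The share of Apoc3 was 22.3 to 23.3% in the normal group and 12.9 to 20.1% on the high-fat diet, where no library reached the normal range, and 18.9 to 30.2% with SCL. Apoc1 had shares of 9.41, 16.1 and 17.0% in the normal group and of 16.4, 24.2 and 32.2% on the high-fat diet, which overlapped. With SCL the share of Apoa2 was 11.4 to 25.1% against 8.92 to 10.9% on the normal diet, and that of Apoa4 0.0696 to 0.600% against 0.615 to 1.23%.

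Thus 2 of 10 shares had groups that did not overlap on the high-fat diet against the normal diet (Apoa1 and Apoc3). The count was 0 of 10 for SCL against the high-fat diet, and 3 of 10 for SCL against the normal diet (Apoa1, Apoa2 and Apoa4). Shares of this pool have no rate over all genes. In CPM the groups of 10.6, 4.78 and 15.3% of all genes did not overlap, in the same order of comparisons. Each of the 5 differences in share had an exact permutation p of 0.1, the smallest that 3 against 3 libraries allow. The adjusted values over the 10 genes were 0.5 on the high-fat diet and 0.333 with SCL. None passed. Shares of 1 library add up to 100%, so they are not independent of each other. Leaving out a library can only keep or raise the counts of shares that did not overlap, since fewer libraries have to be apart. A rate over all genes with a library left out is not given here. The count for SCL against the normal diet was 5 without SCL replicate 2 and that on the high-fat diet was 7 without high-fat diet replicate 1. For SCL against the high-fat diet it was 2 without SCL replicate 1 or high-fat diet replicate 1, and 1 without SCL replicate 2. Without both libraries rich in mitochondrial reads the counts were 3, 1 and 5.

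Summed by genomic cluster, which was chosen after the single shares were seen and was not tested, the genes of chromosome 1 (Apoe, Apoc1 and Apoc2) held 54.2, 57.1 and 56.8% of the pool on the normal diet and 62.8, 61.1 and 65.9% on the high-fat diet. The genes of chromosome 8 (Apoa1, Apoc3, Apoa4 and Apoa5) held 33.3, 29.5 and 29.9% in the normal group and 27.3, 23.1 and 17.6% on the high-fat diet. For both clusters the ranges of these 2 diets did not overlap. With SCL the shares were 62.4, 47.1 and 49.0% for the cluster on chromosome 1 and 24.3, 23.9 and 34.0% for that on chromosome 8. For both clusters the SCL range covered the normal diet range in full and the high-fat diet range in part.

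**Figure D4:**
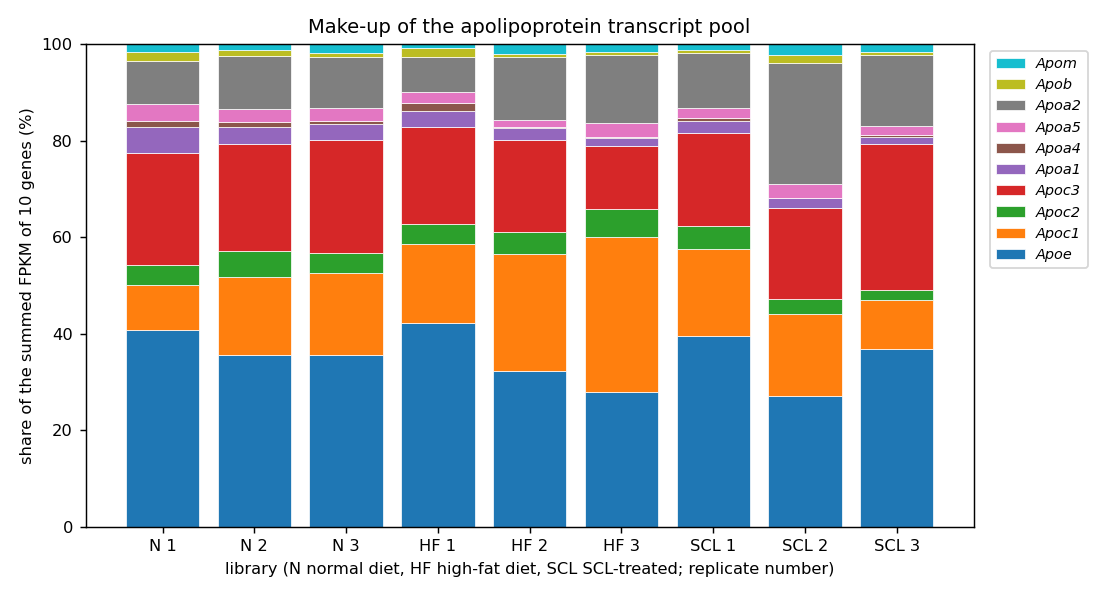
Share of each gene in the summed FPKM of the 10 genes, in percent, as stacked bars from 0 to 100% for the 9 libraries. From below, Apoe, Apoc1 and Apoc2 reach 54.2 to 57.1% in the normal diet libraries and 61.1 to 65.9% in the high-fat diet libraries.

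Gene length moved with the level in a way that differed between libraries, and the apolipoproteins span the range of lengths. This was seen in the data and then described. The lengths implied by FPKM and counts were 440 bases for Apoa2, 467 for Apoc1, 646 for Apoc2, 651 for Apoc3, 889 for Apoa1, 989 for Apom, 1407 for Apoa4, 1555 for Apoe, 1967 for Apoa5 and 14969 for Apob. Over the 293 tested genes of up to 500 bases, the median log2 CPM, relative to each gene's mean over the 9 libraries, was -0.62, -0.21 and 0.20 in the normal diet libraries, -0.67, 0.61 and 0.29 in the high-fat diet libraries and 0.32, 0.07 and 0.15 in the SCL libraries. Apoc1 and Apoa2, the 2 shortest of the 10, were low in normal diet replicate 1 and high-fat diet replicate 1, where short genes as a whole were low.

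**Figure D5:**
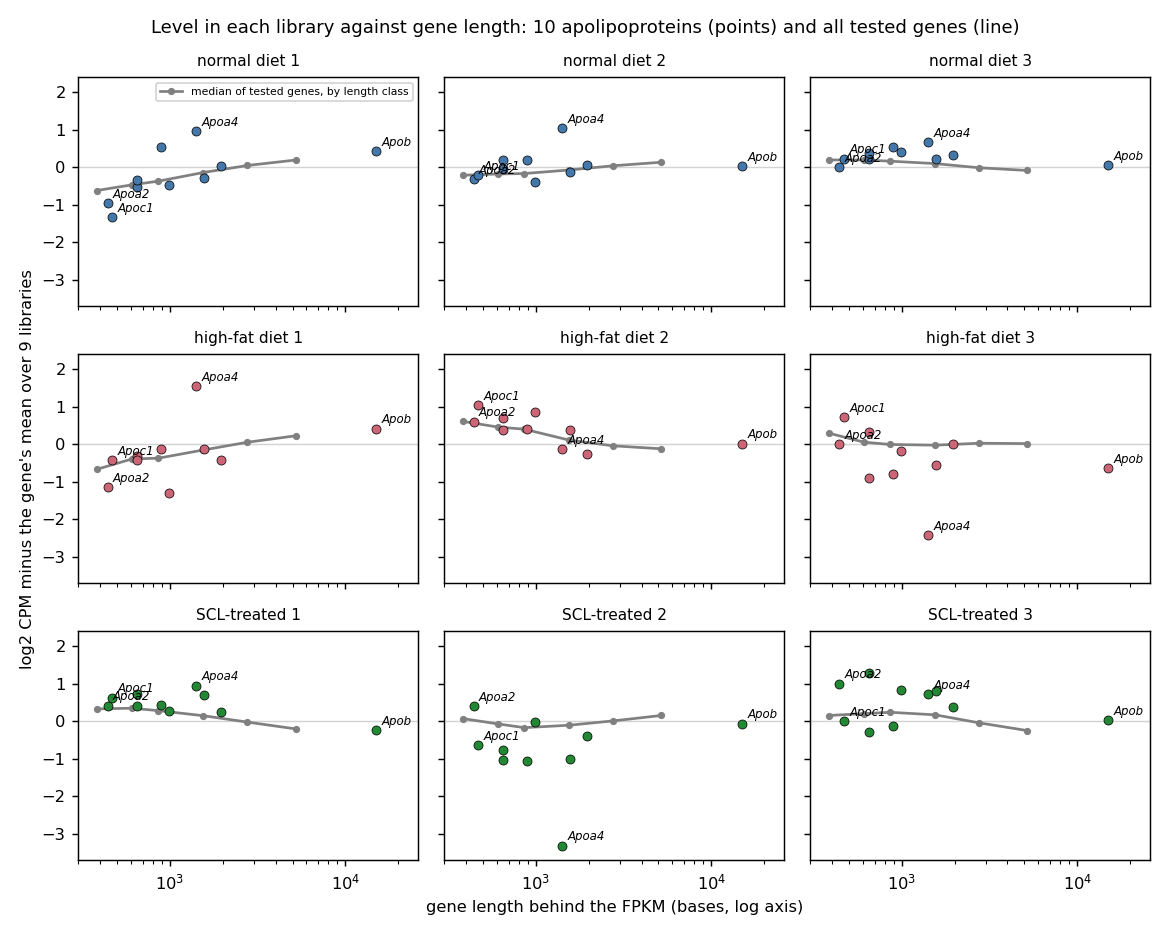
Log2 CPM minus the gene's mean over the 9 libraries against gene length in bases on a log axis, with 1 panel per library. Points are the 10 genes, and the grey line joins the median of all tested genes in 6 classes of length, which rises with length in normal diet replicate 1 and high-fat diet replicate 1 and falls in high-fat diet replicate 2.

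When a smooth curve of level on length was removed from each library, a step added after seeing the data, the variance of log2 CPM over the 9 libraries was 65.3% lower for Apoa2, 61.8% lower for Apoc1, 49.7% lower for Apom and 40.3% lower for Apoc2. It was 0.504% lower for Apoa4 and 0.0712% lower for Apoa1. For Apob, the longest, the variance was 19.3% higher. With the curve removed the log2 fold change on the high-fat diet against the normal diet was 0.61 for Apoc1, 0.01 for Apoa2 and -0.66 for Apoa1. For SCL against the normal diet it was 0.68 for Apoa2 and -0.86 for Apoa1, and 0 of 10 genes were called in any comparison. What made the level depend on length in these libraries was not tested.

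Other genes of lipoprotein metabolism were taken from 5 lists, and 0 of the 61 genes tested passed edgeR's test in any of the 3 comparisons. By edgeR, 5 of them had an unadjusted p under 0.05 on the high-fat diet against the normal diet, beside 4.32% of all genes. For SCL, 4 did against the high-fat diet, beside 1.95% of all genes, and 9 against the normal diet, beside 6.88%. DESeq2 called 1, 0 and 1 of the 61, beside 0.413, 0.00643 and 0.281% of all genes, and the call in the last of these comparisons was Angptl8. Of 12 genes for lipoprotein assembly and secretion, 10 were lower and 2 higher in high-fat diet livers, where they had a median log2 fold change of -0.27 and 0 of 12 had an unadjusted p under 0.05. Over all genes 52.8% were higher in that comparison and 46.7% for SCL against the high-fat diet. Of 12 hepatocyte markers, 10 were lower in high-fat diet livers (median -0.53) and 11 were higher for SCL against the high-fat diet (median 0.24), and their part in the values of the lists was not tested. Of the genes for lipoprotein assembly and secretion the 2 most abundant were P4hb and Mttp. On the high-fat diet P4hb, the shared subunit of the microsomal triglyceride transfer protein complex, was at -0.34 (SE 0.54). Mttp, the lipid-transferring subunit of that complex, was at -0.42 (SE 0.27). Mttp averaged 215 ± 11.8 CPM (SD, n = 3) in the normal group, against 161 ± 37.8 (SD, n = 3) in high-fat diet livers and 154 ± 20.4 (SD, n = 3) in SCL livers. Of 12 receptors and exporters of cholesterol, 8 were lower in high-fat diet livers (median -0.64), and 11 were higher for SCL against the high-fat diet (median 0.24), where the high-fat diet libraries enter with the opposite sign. Among them were Lrp1, a remnant receptor that binds Apoe, at -0.57 (SE 0.42) on the high-fat diet, and Sdc1, a heparan sulfate proteoglycan of hepatocytes that binds remnants, at -0.77 (SE 0.44).

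Of the lipases and their modulators, 8 of 10 were tested, with 4 higher and 4 lower on the high-fat diet and a median log2 fold change of 0.08. Lcat, which esterifies cholesterol on high-density lipoprotein and needs Apoa1, was at -0.22 (SE 0.33). Of 12 other genes named as apolipoproteins or their partners 10 were tested, with 4 higher and 6 lower in high-fat diet livers and a median of -0.13, and Apoh and Clu, the most abundant, were at -0.51 (SE 0.45) and -0.36 (SE 0.47). The 19 regulators of apolipoprotein transcription had 6 higher and 13 lower and a median of -0.12. Hnf4a, a nuclear receptor needed for many apolipoprotein genes, was at -0.14 (SE 0.40), and Creb3l3, which is known to drive Apoa4, Apoa5 and Apoc2, at -0.82 (SE 0.41, adjusted p = 0.911 in edgeR). Creb3l3 averaged 583 ± 91.2 CPM (SD, n = 3) in the normal group, against 331 ± 11.3 (SD, n = 3) in high-fat diet livers and 383 ± 201 (SD, n = 3) in SCL livers. The list medians for SCL against the normal diet were -0.39 for assembly, -0.15 for lipases, -0.40 for receptors and exporters, 0.03 for other apolipoproteins and -0.47 for regulators. Against the high-fat diet those for SCL were -0.09, 0.18, 0.24, 0.11 and -0.07 in the same order, beside -0.03 over all genes.

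Some listed genes outside the rule for naming had an unadjusted p under 0.05 in edgeR on the high-fat diet, and they are named here after their values were seen. Those given are Angptl8, Srebf1, Srebf2 and Ppargc1a. Srebf2, the regulator of cholesterol synthesis, was at -1.13 on the log2 scale (SE 0.31, adjusted p = 0.808 in edgeR). For Angptl8, a modulator of lipoprotein lipase, the value was 1.91 (SE 0.63, adjusted p = 0.911 in edgeR). Srebf1, the regulator of fatty acid synthesis, was at 2.21 (SE 0.86) and the coactivator Ppargc1a at -2.55 (SE 0.97), both with an adjusted p of 0.911 in edgeR.

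The gene most like each apolipoprotein was sought among 2696 others with a mean of at least 5 log2 CPM, by the root mean square difference of log2 CPM after centring each gene on its mean over the 9 libraries. For Apoa1 it was the hepatic lipase gene Lipc, at a difference of 0.17, and for Apoa4 it was Pglyrp2, an amidase that the liver secretes, at 0.30. For Apoa2 it was Uqcr10 at 0.16 and for Apoc1 Uqcrb at 0.25, both subunits of respiratory chain complex III. Psmd7 (0.11) was nearest to Apoa5, Sepsecs (0.11) to Apob, Timm13 (0.18) to Apoc2, Tst (0.19) to Apoc3, Hagh (0.15) to Apoe and Anapc11 (0.17) to Apom. Within the family the closest pair was Apoc3 and Apoe at 0.26, followed by Apoa2 and Apom at 0.29 and Apoc1 and Apoc2 at 0.39. Apoa4 was at least 1.19 from every other member, with Apoa1 the nearest. Depth, the mitochondrial share and the length trend are common to all genes of a library, so likeness here is a description of 9 libraries.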

How the data were processed

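Per the labels' protocols, liver RNA for the 9 libraries was isolated with Trizol and a NEBNext Ultra kit was used for library preparation. Per the file headers, the 2 deposited tables hold raw counts, the counts scaled to a normalized signal, FPKM, and the authors' log2 fold changes and p-values. Per the submitters' processing notes, DESeq2 was used and the build was mm9, which is a mouse build. Aligner, counter and use of strand: not given in the sources used here. Reads shared with an overlapping gene or a close copy are therefore uncertain. The tables hold 15819 and 15929 genes, and high-fat diet values did not differ between them in any of the 15565 shared genes. In every library the deposited FPKM equalled the count over 1 length per gene and the table's total, which gave the implied lengths.

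The raw counts, as deposited, went into 1 fit over all 9 libraries in edgeR 4.0.16 (R 4.3.3), with group as the only term, TMM scaling and filterByExpr (minimum count 10), which kept 12041 genes. Adjustment was by Benjamini-Hochberg over all genes. The standard error is the absolute log2 fold change over the square root of the F value. DESeq2 1.42.0 was the other count test. Both were tested on simulated data, as was the removal of the length trend, a lowess curve per library given to edgeR as an offset. Sums, shares and relations over libraries were tested by exact permutation in Python 3.11.15. No library was a repeat of another: chi-square over degrees of freedom was at least 38.5 for every pair within a group. Members, lists and tests were chosen with earlier results of these data known. All 10 members are named. Of each list the called genes are named or, where none was called, the 2 most abundant by CPM, and the nearest gene is named for each member. Values of some listed genes are not reported here. Symbols were matched to RefSeq (GRCr8) for promoters and gene order only.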

Additional observations from a re-analysis of the deposited data

How the results depend on the processing

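With 3 libraries a group, and members whose standard errors reach 0.97 on the log2 scale, even large differences could go uncalled. In edgeR neither the 1.99-fold difference of Apoa2 for SCL against the normal diet was called, nor the log2 fold change of -2.55 of Ppargc1a on the high-fat diet. No member was called under any alternative, with 0 called in each comparison also with a replicate block. Same-numbered libraries did not all deviate together (correlations from -0.348 to 0.604), so the numbers were not taken as pairs. Unless a value or the construction shows it, the cause was not tested. The following log2 fold changes turned in sign. High-fat diet against normal diet: Apoe to 0.045 with the replicate block; Apoa4 to 0.39, Apob to 0.0010, Apoc3 to 0.11, Apoe to 0.36 and Apom to -0.083 with the log2 mitochondrial share as covariate; Apoa4 to 0.029, Apob to 0.042 and Apoe to 0.19 without the 2 libraries over 40% mitochondrial; and Apom to -0.035 with the length trend removed, an alternative chosen after seeing the data. SCL against high-fat diet: Apoa1 to 0.0083 and Apoc2 to 0.035 without the 2 libraries, and Apob to 0.27 with the length trend removed. SCL against normal diet: Apoa4 to 0.26 with the covariate, Apoa5 to 0.15 and Apoc2 to 0.28 without the 2 libraries, and Apob to 0.11 with the length trend removed.

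Leaving out each library in turn gave ranges that crossed 0. On the high-fat diet against the normal diet they were -0.11 to 0.69 for Apoa2, -1.77 to 0.028 for Apoa4, -0.46 to 0.041 for Apob, -0.28 to 0.19 for Apoe and -0.56 to 0.52 for Apom. For SCL against the high-fat diet they were -0.44 to 0.28 for Apoa1, -0.65 to 1.15 for Apoa4, -0.32 to 0.19 for Apob, -0.89 to 0.026 for Apoc2 and -0.029 to 1.04 for Apom. For SCL against the normal diet they were -0.20 to 0.16 for Apoa5, -0.63 to 0.29 for Apoc2 and -0.11 to 0.87 for Apoc3. The difference in summed FPKM ranged from -3965 (without high-fat diet replicate 2) to 4903 for the high-fat diet against the normal diet, from -689 (without SCL replicate 3) to 13790 for SCL against the high-fat diet, and from 392 (without SCL replicate 3) to 14870 (without SCL replicate 2) for SCL against the normal diet. The number of shares that did not overlap ranged from 2 to 7, from 0 to 2 and from 3 to 5 in the 3 comparisons in the order above. With 2 libraries against 3 it cannot fall, so the lower ends follow from the construction. From raw counts in place of FPKM it was 1 on the high-fat diet against the normal diet, and without the 2 libraries it was 1 for SCL against the high-fat diet and 5 for SCL against the normal diet. The relation with the mitochondrial share that passed for 1 gene, Apoa4, over 9 libraries passed for 0 without the 2 (lowest adjusted p = 0.0982, exact permutation).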

Other observations

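The authors' deposited table of the normal and high-fat diet libraries gives log2 fold changes of the normal diet over the high-fat diet. In the authors' deposited table Apoc1 has -0.86 with a p-value of 0.0881 and an adjusted p-value of 0.803 from DESeq2, Apoa1 has 0.53 and Apoa5 has 0.38. In the authors' deposited table of SCL and high-fat diet libraries Apoc3 has 0.75 and Apoa2 has 0.65, both with an adjusted p-value of 1.00 from DESeq2. No gene of that table has an adjusted p-value under 0.05, and 53 genes do in the table of the normal and high-fat diet, none of them one of the 10 apolipoproteins.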
